A study of Mus musculus with 123 samples.

Results

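The interferon response genes are 43 mouse genes whose transcripts are known to rise when a cell senses interferon or viral nucleic acid. They were chosen by symbol, and each was followed on the brightest Affymetrix MoGene 2.1 ST transcript cluster (the set of probes read as 1 transcript) that the platform annotation assigned to that symbol alone. Of the 43 genes, 39 had a cluster of their own and 36 passed the filter on low values, out of 10942 genes that passed it among 22180 genes with 1 symbol. Of the 36, 34 passed because their median over mice lay above the level cut of 4.08, and *Ifit2* and *Oas3* passed because over 12.5% of the mice did. *Mx1*, *Trim30a* and *Gbp6* lay below the cut. *Oas1a*, *Ifi27l2a* and *Gbp2* shared their cluster with a second gene (*Oas1g*, *Ifi27l2b* and *Gbp2b*), so their values were described and not tested, and no cluster carried the symbol *Ifi44*.

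The livers came from 123 female mice of 22 Collaborative Cross (CC) strains, recombinant inbred lines bred from a shared set of founder strains. The mice arrived at 6 to 9 weeks of age, ate a synthetic chow for 2 weeks, and then ate a high-protein (HP, 63 mice) or a high-fat high-sucrose (HS, 60 mice) diet for 8 weeks. Each strain had 4 to 6 mice, with 2 or 3 mice on each diet. No untreated, infected or interferon-treated mice were part of the design, so the levels below are those of mice given no known interferon stimulus. Values are log2 intensities after robust multi-array averaging (RMA), and a difference of 1 is a doubling.

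Type I and type III interferons bind receptors that activate the kinases Jak1 and Tyk2, which phosphorylate Stat2. With Irf9, Stat2 is part of the factor ISGF3, which binds the interferon-stimulated response element (ISRE) in promoters, whereas interferon gamma acts on promoters through the gamma-activated sequence (GAS). In the liver, hepatocytes, Kupffer cells (the resident macrophages) and endothelial cells can all respond, and in whole tissue fewer cells of a type cannot be told apart from less RNA per cell.

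Promoter stretches are shown first for tested members that hold the binding element of ISGF3, and whether the element bears on the values that follow was not tested. RefSeq promoters (GRCm38.p6, 250 bases before to 50 bases after each start site) were found for 30 of the 43 members, as 34 entries. The core of the ISRE, written GAAANNGAAA or on the other strand TTTCNNTTTC, was present in 18 of the 34 member promoters (52.9%) and in 3.44% of all 32851 promoters of the same length. The GAS, written TTCNNNGAA, which reads the same on both strands, was present in 9 of 34 (26.5%) and in 8.30% of all promoters. A match describes these letters only, and a promoter counted once however many matches it held. An ISRE core was found for 17 members, of which *Gbp2*, *Oas1a* and *Trim30a* were not tested and are not shown. In the stretches below, read 5′ to 3′ on the gene's own strand, the capitals mark each ISRE core with up to 18 bases on either side.
Stat2 (chr10:128270258-128270303, plus strand): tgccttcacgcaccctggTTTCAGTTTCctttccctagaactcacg
Ddx58 (chr4:40239796-40239841, minus strand): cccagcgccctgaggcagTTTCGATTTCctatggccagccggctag
Ifih1 (chr2:62646206-62646241, minus strand): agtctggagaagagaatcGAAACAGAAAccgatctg
Ifit1 (chr19:34640767-34640831, plus strand): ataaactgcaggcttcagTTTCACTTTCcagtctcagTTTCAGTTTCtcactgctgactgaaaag
Ifit3 (chr19:34583355-34583434, plus strand): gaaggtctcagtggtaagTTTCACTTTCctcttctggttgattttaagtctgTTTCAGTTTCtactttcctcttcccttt
Oas3 (chr5:120777707-120777752, minus strand): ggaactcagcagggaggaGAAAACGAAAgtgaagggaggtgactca
Rsad2 (chr12:26456545-26456590, minus strand): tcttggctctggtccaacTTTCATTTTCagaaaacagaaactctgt
Bst2 (chr8:71537569-71537620, minus strand): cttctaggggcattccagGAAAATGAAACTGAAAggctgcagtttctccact
Isg15 (chr4:156200857-156200914, minus strand): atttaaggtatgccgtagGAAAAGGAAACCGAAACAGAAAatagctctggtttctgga
Gbp3 (chr3:142559981-142560032, plus strand): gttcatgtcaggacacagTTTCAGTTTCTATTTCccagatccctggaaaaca
Gbp7 (chr3:142530265-142530310, plus strand): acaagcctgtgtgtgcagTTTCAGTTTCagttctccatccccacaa
Irgm1 (chr11:48871417-48871468, minus strand): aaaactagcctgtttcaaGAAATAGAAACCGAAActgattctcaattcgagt
Igtp (chr11:58199504-58199549, plus strand): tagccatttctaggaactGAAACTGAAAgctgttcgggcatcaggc
Irgm2 (chr11:58214895-58214940, plus strand): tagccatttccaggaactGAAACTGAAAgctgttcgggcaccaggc
*Isg15*, a ubiquitin-like protein, carried 3 overlapping cores, the first starting 78 bases before the start site. *Ifit1* and *Ifit3* each carried 2 separate cores, whereas those of *Bst2*, *Gbp3* and *Irgm1* overlapped. The cores of *Ddx58* and *Ifih1* lay 3 and 33 bases after the start site. *Igtp* and *Irgm2*, neighbouring genes, differed at 2 of the 46 bases shown, and each had a GAS just before its ISRE core, while in *Bst2* the GAS overlapped the first core. Within this window no ISRE core was found for *Irf7*, *Irf9*, *Ifit2*, *Oasl1*, *Oasl2*, *Samhd1*, *Psmb8*, *Psmb9*, *Tap1*, *Ifi35*, *Ifi44*, *Xaf1* or *Lgals3bp*. No promoter entry was matched for *Dhx58*, *Zbp1*, *Oas2*, *Mx1*, *Mx2*, *Usp18*, *Gbp6*, *Iigp1*, *Ifi27*, *Ifi27l2a*, *Rtp4*, *Parp9* or *Parp14*.

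Array medians lay between 2.97 and 3.16, and the liver label was borne out by 8 hepatocyte genes such as *Alb* and *Apoa1*, whose mean level was 12.33 ± 0.30 (SD, n = 63) on HP and 12.33 ± 0.29 (SD, n = 60) on HS. Over all tested genes, 122 of 123 mice were nearest to their own strain. The exception, an HS mouse of CC059/TauUnc, correlated with its own strain at r = 0.127 and with CC035/Unc at r = 0.738, and an HP mouse of CC071/TauUnc had an *Xist* level of 2.72 where all other mice had at least 9.16. The CC059/TauUnc mouse lay below its strain's 5 other mice in 24 of the 36 members and above them in *Stat2* and *Mx2*. The CC071/TauUnc mouse lay below its strain's other mice in 14 members and above them in none. Results were therefore also computed without these 2 mice.

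Genetic background was the first question, and every tested member differed by strain. In the limma F-test for strain with Benjamini-Hochberg (BH) adjustment over all genes, 36 of 36 members passed, against a background of 81.3% of all tested genes (8897 of 10942). The 36 include *Ifit2* and *Oas3*, which lay above the level cut in only 36.6% and 17.9% of mice. The median F of the members was 9.53 (range 3.66 to 70.2), and that of all genes was 3.10. The median intraclass correlation for strain, the share of a gene's variance that lies between strains, was 0.622 for the members (range 0.319 to 0.923) and 0.286 for all genes. Between the highest and the lowest strain mean, the members differed by a median of 3.42-fold, from 1.68-fold for *Ifi35* to 40.5-fold for *Iigp1*. These are differences in array signal, and whether sequence variants of the strains lie under the probes of *Iigp1* or any other member was not examined.

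Many members shared an order of strains, with a median r of 0.673 between the strain means of 2 members. Averaged over the 36 members as a deviation from the mean of all mice, CC008/GeniUnc was lowest at -0.75 ± 0.07 (SD, n = 5), followed by CC004/TauUnc at -0.57 ± 0.13 (n = 6) and CC035/Unc at -0.49 ± 0.20 (n = 5). CC024/GeniUnc was highest at 0.73 ± 0.44 (n = 4), followed by CC027/GeniUnc at 0.63 ± 0.13 (n = 6), CC001/Unc at 0.59 ± 0.13 (n = 6) and CC040/TauUnc at 0.54 ± 0.21 (n = 6). All 5 mice of CC008/GeniUnc (-0.83 to -0.66) lay below all 6 mice of CC027/GeniUnc (0.41 to 0.80), while each strain overlapped with its neighbours in the order. CC008/GeniUnc lay below the overall mean in 35 of 36 members and held the lowest strain mean of 14. CC024/GeniUnc lay above it in 35 of 36 and held the highest strain mean of 13, but its 4 mice spread from 0.35 to 1.29. Its HS mouse 61 had the highest mean of all mice at 1.29 and exceeded its 3 strain mates in 25 members, and its HP mouse 22 was next at 0.89. The mean level of 10 macrophage markers was 7.24 in CC008/GeniUnc, 6.74 in CC004/TauUnc and 7.68 in CC024/GeniUnc, which was the highest of all strains. Within CC024/GeniUnc it was 8.52 in mouse 61 and 7.96 in mouse 22, but 7.057 and 7.185 in the other mice. The marker mean did not follow the members in every strain, with 7.49 in the third lowest, CC035/Unc, and 7.085 in the second highest, CC027/GeniUnc. The markers' part in the strain order was not tested.

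**Figure D1:**
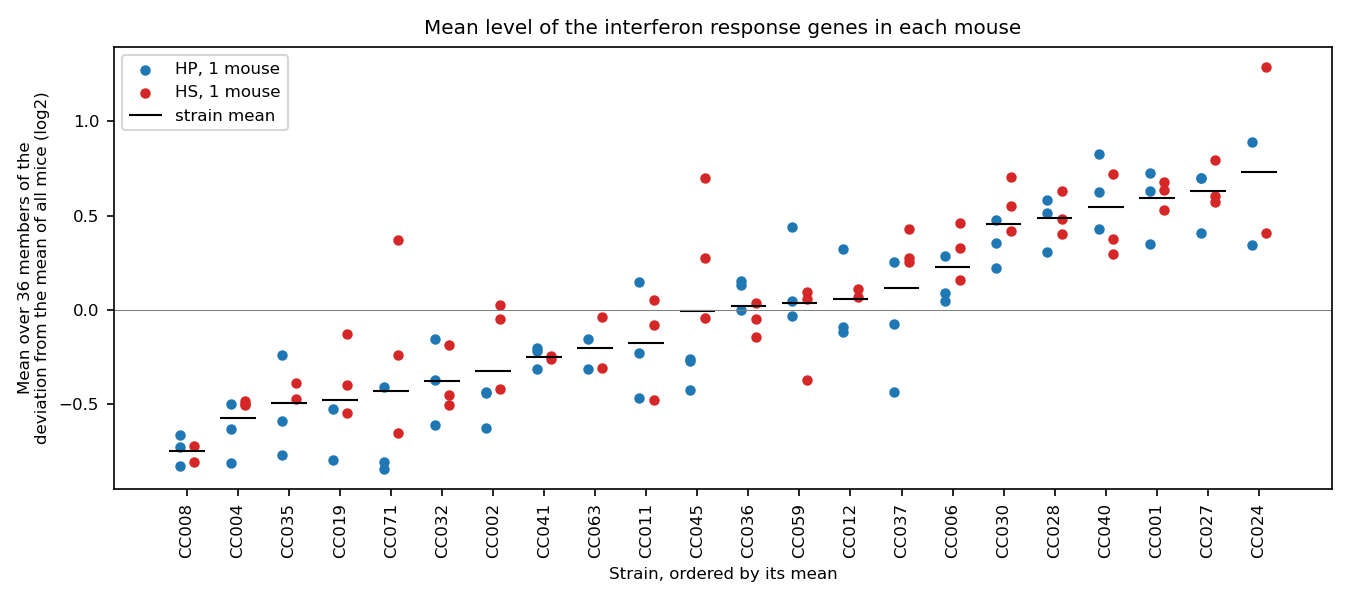
Mean over the 36 tested members of the deviation from the mean of all mice (log2, vertical axis) in each of the 22 strains (horizontal axis, ordered by strain mean), with 1 point per mouse (blue HP, red HS) and a bar at the strain mean. Strain means run from -0.75 in CC008/GeniUnc to 0.73 in CC024/GeniUnc, and HP and HS points are mixed in most strains.

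**Figure D2:**
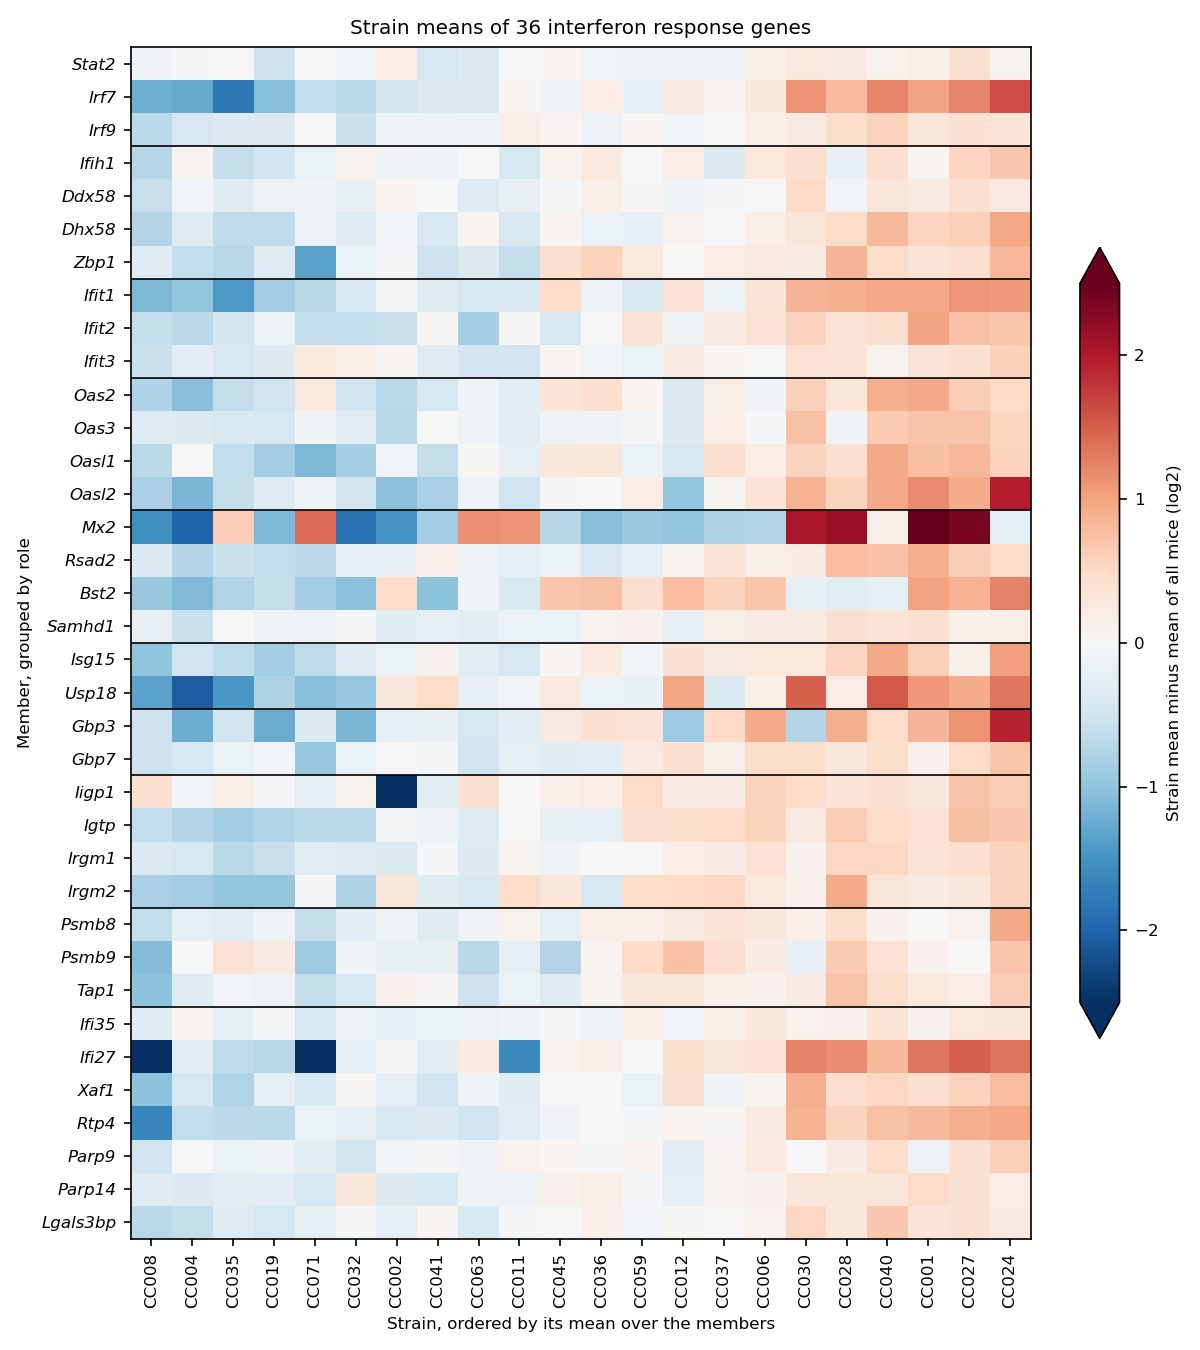
Strain mean minus the mean of all mice (log2, colour) for the 36 tested members (rows, grouped by role) in the 22 strains (columns, in the order of their mean over the members), with the colour range ending at 2.5 in either direction. Most rows turn from blue to red from left to right, while *Mx2*, *Iigp1* and *Ifi27* show strains that depart from that order.

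Among the transcription factors, *Irf7*, the factor that amplifies type I interferon production, varied most. Its 5 CC035/Unc livers read 4.69, 5.60 and 5.71 on HP and 5.05 and 5.61 on HS. The 4 CC024/GeniUnc livers read 8.19 and 9.54 on HP and 8.06 and 9.19 on HS. The groups did not overlap, and the strain means of 5.33 and 8.74 were 10.6-fold apart (F = 29.8, BH-adjusted p = 3.75e-33). *Irf9*, the DNA-binding part of ISGF3, ran from 6.01 in CC008/GeniUnc to 7.26 in CC040/TauUnc (F = 9.79, BH-adjusted p = 1.77e-15). *Stat2*, its partner, spanned only 0.89, from 7.39 in CC019/TauUnc to 8.29 in CC027/GeniUnc (F = 4.38, BH-adjusted p = 5.72e-07). All 21 steps between neighbouring strain means of *Stat2* were under 1 SD within strains (0.24), so its order has no sharp break.

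*Ifih1*, which encodes the long double-stranded RNA sensor MDA5, had the smallest SD within strains of all members, 0.18. It read 7.34 to 7.52 in the 5 mice of CC008/GeniUnc and 8.52 to 9.00 in the 4 mice of CC024/GeniUnc (F = 22.0, BH-adjusted p = 7.52e-28). CC004/TauUnc and CC037/TauUnc departed from the common order, as all 6 mice of the former (8.015 to 8.34) lay above all 6 of the latter (7.59 to 7.90). *Ddx58*, which encodes RIG-I, ranged over 1.07 between strain means, and *Dhx58*, their regulator LGP2, over 1.69. *Zbp1*, a sensor of left-handed nucleic acid, was lowest in CC071/TauUnc at 4.88, 0.65 below the next strain.

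The IFIT proteins bind foreign RNA ends, and the OAS proteins make the oligoadenylates that activate RNase L. *Ifit1* ran from a strain mean of 4.60 in CC035/Unc to 7.14 in CC027/GeniUnc, and its strain means tracked those of *Irf7* at r = 0.954 over the 22 strains, the highest of all 630 pairs. *Ifit2* and *Ifit3* ranged over 1.83 and 1.16. *Oasl2* read 2.65, 3.74 and 3.83 on HP and 3.86, 4.14 and 4.50 on HS in CC004/TauUnc, against 5.91 and 8.19 on HP and 6.01 and 7.50 on HS in CC024/GeniUnc (F = 17.1, BH-adjusted p = 1.24e-23). The 4 CC024/GeniUnc mice split into a lower and a higher pair, each with 1 mouse of either diet. *Oasl1*, which restrains *Irf7* translation in mice, was lowest in CC071/TauUnc at 4.15 and highest in CC040/TauUnc at 6.20 (F = 19.2, BH-adjusted p = 1.57e-25). *Oas2* and *Oas3* ranged over 2.01 and 1.42. The cluster shared by *Oas1a* and *Oas1g* ran from 2.57 in CC004/TauUnc to 4.99 in CC024/GeniUnc.

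*Mx2*, a dynamin-like antiviral GTPase, broke with the common order. Its strain means fell into 14 strains between 3.99 and 6.14, 4 strains between 6.61 and 7.40, and 4 strains between 8.03 and 8.91 (F = 64.3, BH-adjusted p = 5.01e-48); these ranges were drawn after the values were seen. The highest were CC001/Unc, CC027/GeniUnc, CC028/GeniUnc and CC030/GeniUnc, and the 6 CC001/Unc mice read 8.90, 8.95 and 9.01 on HP and 8.66, 8.81 and 9.13 on HS. The lowest was CC004/TauUnc, at 2.61, 3.52 and 4.23 on HP and 4.34, 4.49 and 4.72 on HS. CC024/GeniUnc, the highest strain over all members, had a mean *Mx2* of only 5.75, and CC035/Unc, the third lowest over all members, had 6.61. The HS mouse of CC059/TauUnc that was nearest to CC035/Unc read 6.85 where its strain mates read 4.45 to 4.99. *Mx1*, the neighbouring paralogue that lay below the level cut, was highest in CC001/Unc too, at 4.33 against 1.66 in CC004/TauUnc.

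Of the other effectors, *Bst2*, which tethers budding virions to the cell surface, read 6.19 to 7.36 in CC004/TauUnc and 8.86 to 9.47 in CC024/GeniUnc without overlap (F = 27.5, BH-adjusted p = 9.66e-32). Its strain means also left a gap of 0.51 in the middle of the order, with 12 strains at or below 7.90 and 10 at or above 8.41. *Rsad2*, the radical enzyme viperin, ranged over 1.61, and *Samhd1*, which depletes nucleotides, over 0.96. *Trim30a*, below the cut, ran from 2.72 in CC004/TauUnc to 4.27 in CC001/Unc.

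*Isg15* and *Usp18*, the modifier and the protease that removes it and dampens receptor signalling, were both low in the low strains. *Usp18* spanned 12.2-fold. It read 3.35, 4.02 and 4.70 on HP and 4.34, 4.44 and 5.29 on HS in CC004/TauUnc, and 8.01, 8.21 and 8.27 on HP and 7.49, 7.83 and 8.03 on HS in CC040/TauUnc (F = 23.4, BH-adjusted p = 6.54e-29). Every CC040/TauUnc mouse was thus above every CC004/TauUnc mouse by more than 2 log2 units. *Isg15* ran from 4.29 in CC008/GeniUnc to 6.33 in CC024/GeniUnc (F = 10.9, BH-adjusted p = 6.70e-17), but HP mouse 22 alone read 7.64 where its 3 strain mates read 5.76 to 6.06.

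The interferon-inducible GTPases disrupt vacuoles that hold pathogens, and the antigen processing genes supply peptides to major histocompatibility complex class I molecules. *Iigp1* showed the largest difference in array signal between strain means of the 36 members, and it rested on 1 strain. The 6 CC002/Unc mice read 4.61, 4.82 and 6.44 on HP and 3.95, 5.12 and 5.29 on HS, and every mouse of the other 21 strains read between 9.00 and 11.5 (F = 57.99, BH-adjusted p = 5.91e-46). The gap between CC002/Unc and the next strain was 4.36, or 12.6 SDs within strains, whereas the other 21 strain means lay between 9.40 and 10.38. *Gbp3* read 3.08 and 3.60 on HP and 3.11, 4.03 and 4.21 on HS in CC019/TauUnc, against 5.57 and 7.69 on HP and 5.85 and 7.98 on HS in CC024/GeniUnc (F = 13.9, BH-adjusted p = 1.92e-20). As for *Oasl2*, the CC024/GeniUnc mice formed a lower and a higher pair. *Igtp*, *Irgm1* and *Irgm2* ranged over 1.61, 1.24 and 1.92, all with CC035/Unc lowest. *Psmb8*, *Psmb9* (immunoproteasome subunits) and *Tap1* (the peptide transporter) ranged over 1.56, 1.83 and 1.72, all with CC008/GeniUnc lowest.

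*Ifi27*, which encodes a small mitochondrial protein, had the largest F of all members (70.2, BH-adjusted p = 9.42e-50). The 5 CC008/GeniUnc mice read 4.37, 4.87 and 5.17 on HP and 4.27 and 4.64 on HS, and the 6 CC071/TauUnc mice read 4.33, 4.72 and 4.93 on HP and 4.68, 4.89 and 5.79 on HS. CC011/Unc followed at a mean of 5.87. All mice of these 3 strains (4.27 to 6.19) lay below all mice of the other 19 strains (6.35 to 9.51), whose highest mean was 8.97 in CC027/GeniUnc. The cluster shared by *Ifi27l2a* and *Ifi27l2b*, paralogues on the same chromosome, was lowest in the same 3 strains, at means of 0.99 in CC008/GeniUnc, 1.41 in CC011/Unc and 1.43 in CC071/TauUnc, against 2.67 or more in the other 19. These 3 means lay below the lowest array median of 2.97. Single mice of this cluster overlapped, with up to 2.30 in the 3 strains and down to 1.715 in the others. *Rtp4*, which encodes a receptor transporting protein, set CC008/GeniUnc apart without overlap: its 5 mice read 4.97 to 5.15 and all other mice read 5.44 or more (F = 21.5, BH-adjusted p = 1.96e-27). *Xaf1*, a gene of programmed cell death, ran from 4.74 in CC008/GeniUnc to 6.70 in CC030/GeniUnc (F = 12.5, BH-adjusted p = 7.17e-19). *Parp9*, *Parp14*, *Lgals3bp* and *Ifi35* ranged over 1.10, 0.90, 1.34 and 0.75.

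**Figure D3:**
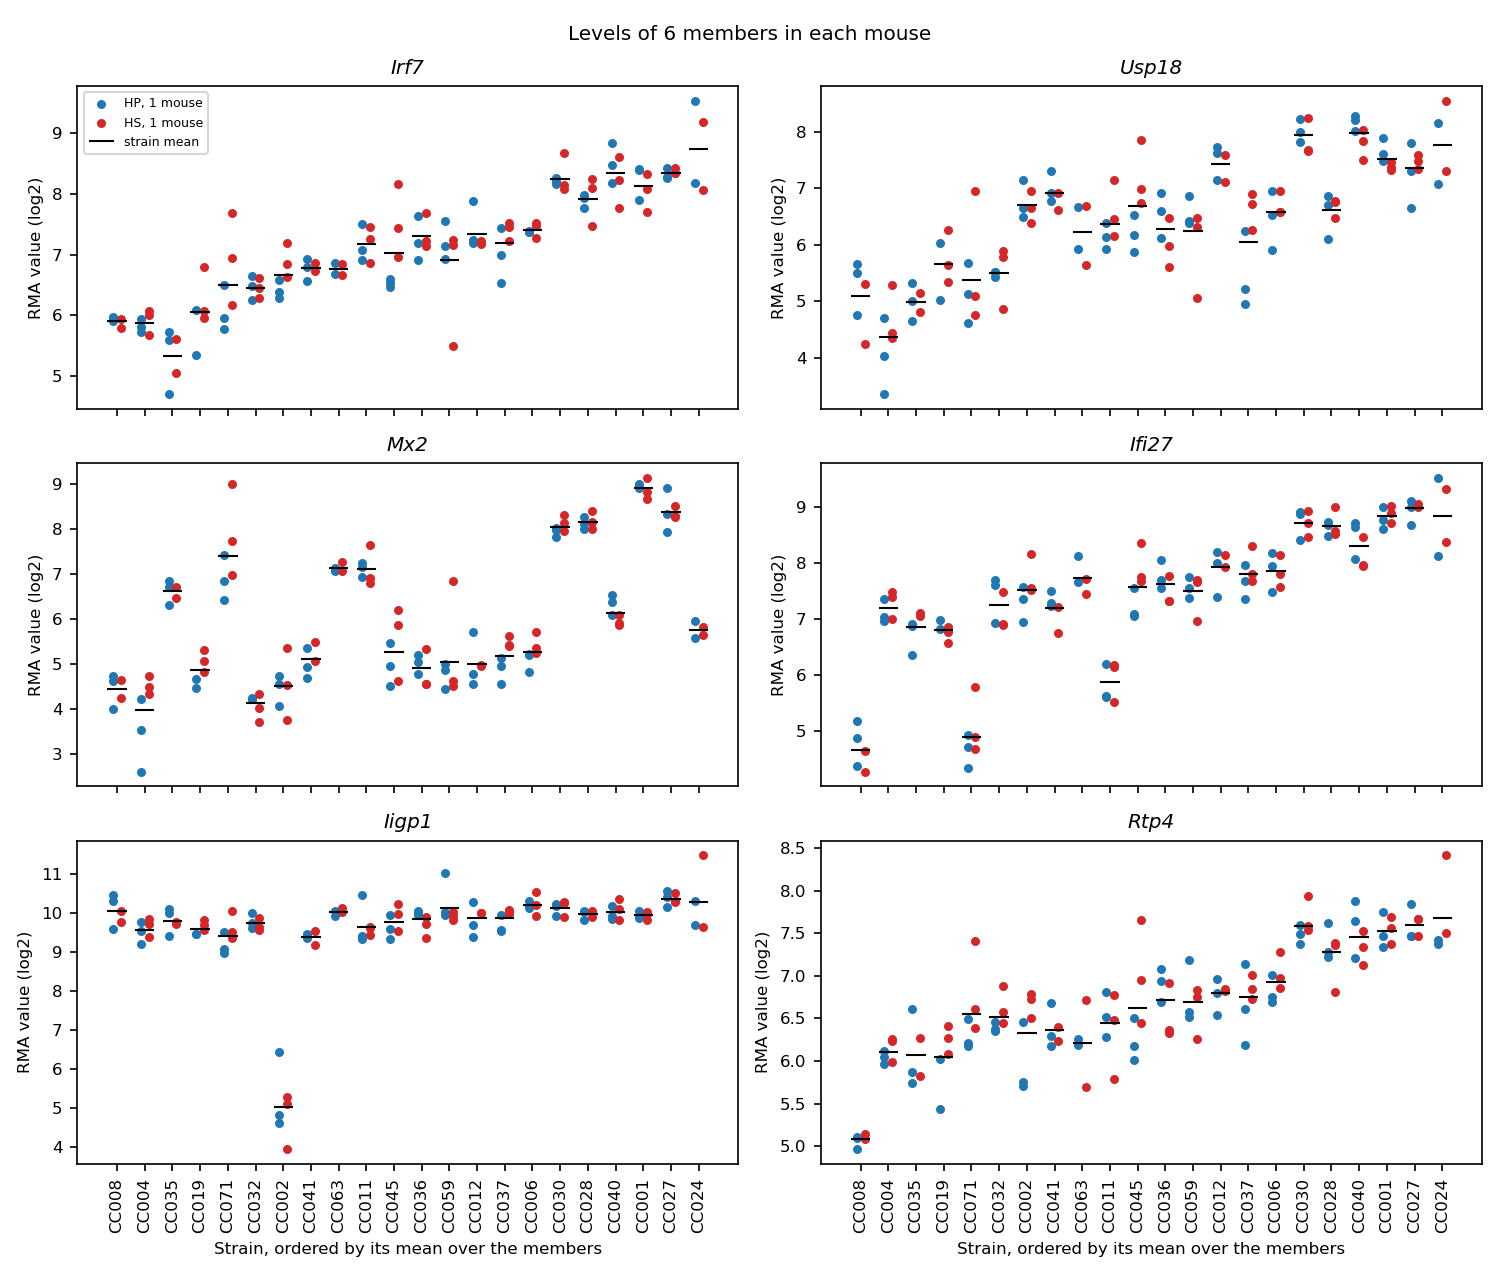
RMA values (log2, vertical axes) of *Irf7*, *Usp18*, *Mx2*, *Ifi27*, *Iigp1* and *Rtp4* in each mouse of the 22 strains (horizontal axes, in the order of the mean over members), blue HP, red HS, bars at strain means. *Iigp1* is low in CC002/Unc only, *Ifi27* in CC008/GeniUnc, CC071/TauUnc and CC011/Unc, and *Mx2* is highest in CC001/Unc, CC027/GeniUnc, CC028/GeniUnc and CC030/GeniUnc.

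The strain order recurred in the mice of the other diet, which are different animals. The correlation over the 22 strains between strain means on HP and strain means on HS had a median of 0.823 for the 36 members (0.589 for *Igtp* to 0.975 for *Iigp1*) and of 0.563 for all tested genes. These correlations are descriptions, and the mice of both diets share a strain and may share a litter or a week, which were not among the labels used here.

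The second question was diet. HP livers were lower than HS livers for all 36 members, with a median difference of -0.14 (range -0.33 to -0.01), whereas 53.5% of all tested genes were lower and their median difference was -0.01. Over all mice 2 members correlated at a median r of 0.565, so these are not 36 separate results. The mean over the members, as a deviation from all mice, was -0.07 ± 0.48 (SD) on HP and 0.07 ± 0.46 on HS. All 36 were also below 0 with arrays centred on their median or quantile normalized again, and 35 with strain as a block, where *Bst2* was at 0.0025. Few of these differences passed. Fitted on diet alone, 4 members were lower on HP at a BH-adjusted p under 0.05, namely *Stat2*, *Samhd1*, *Ifi35* and *Ddx58*, against a background of 5.13% of all genes called lower and 6.28% called higher. None of the members was called higher, and 12 members were lower and 0 higher at an unadjusted p under 0.05.

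*Stat2* ranged from 7.08 to 8.51 with a median of 7.84 over the 63 HP mice and from 7.43 to 8.62 with a median of 8.03 over the 60 HS mice. The means were 7.81 ± 0.29 and 8.00 ± 0.28 (SD), so the groups overlapped widely. The difference was -0.20 ± 0.05 (SE, limma, BH-adjusted p = 0.00463), or 1.15-fold higher on HS, and HP had the lower mean in 20 of 22 strains. In 7 strains every HP mouse was below every HS mouse, and in 0 strains was it the other way round. The largest gap was that of CC008/GeniUnc, with 7.21, 7.64 and 7.75 on HP and 8.19 and 8.33 on HS.

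*Samhd1* had a median of 7.26 on HP (6.60 to 7.93) and of 7.49 on HS (6.75 to 8.06). Its difference was -0.20 ± 0.06 (SE, BH-adjusted p = 0.0108), with HP lower in 18 of 22 strains and without overlap in 7 of them. *Ifi35*, whose product interacts with other interferon-induced proteins, had a median of 6.63 on HP (5.78 to 7.19) and of 6.78 on HS (5.93 to 7.44). It differed by -0.17 ± 0.05 (SE, BH-adjusted p = 0.0145), also with HP lower in 18 of 22 strains. *Ddx58* had a median of 6.90 on HP (6.16 to 7.46) and of 7.03 on HS (6.55 to 7.70), a difference of -0.15 ± 0.05 (SE, BH-adjusted p = 0.0359), with HP lower in 17 of 22 strains. Leaving out any 1 of CC002/Unc, CC008/GeniUnc, CC012/GeniUnc, CC037/TauUnc or CC045/GeniUnc ended the *Ddx58* call, with BH-adjusted p from 0.054 to 0.0835, and the other 3 calls held without any 1 strain.

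With strain as a block, which removes the large differences between strains from the error, 14 of 36 members were lower on HP and 0 higher, against a background of 11.7% called lower and 11.5% called higher. The members added were *Oas3*, *Lgals3bp*, *Xaf1*, *Ifit1*, *Oas2*, *Dhx58*, *Parp14*, *Zbp1*, *Mx2* and *Oasl2*. Of these, *Oasl2* lost its call with arrays centred on their median or quantile normalized again, *Mx2* after repeated quantile normalization or without the 2 mice that stood apart, *Zbp1* without those 2 mice, and *Parp14* without the 2 mice of highest member mean. The largest of these differences was that of *Ifit1*, -0.31 ± 0.09 (SE, BH-adjusted p = 0.00763), and the smallest that of *Parp14*, -0.11 ± 0.04 (SE, BH-adjusted p = 0.0397). By role, 3 of 4 RNA sensors and 3 of 4 tested OAS genes passed, among the latter *Oas3*, which lay below the level cut in most mice. By contrast 0 of 4 immunity-related GTPases, 0 of 2 guanylate-binding proteins, 0 of 3 antigen processing genes and neither *Isg15* nor *Usp18* passed. These counts moved with the setting: *Irgm1* was called lower on HP without the 2 mice that stood apart, and *Gbp7* after repeated quantile normalization. *Isg15* differed by -0.06 ± 0.11 (SE, diet alone, BH-adjusted p = 0.804), *Usp18* by -0.10 ± 0.19 (BH-adjusted p = 0.804), *Irf7* by -0.14 ± 0.17 (BH-adjusted p = 0.670) and *Irf9* by -0.07 ± 0.07 (BH-adjusted p = 0.581). Whether the roles differed from each other in their diet difference was not tested.

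Macrophage markers moved with this difference. All 10 Kupffer cell and macrophage markers were lower on HP, 3 of them (*Clec4f*, *Cd68* and *C1qb*) past the threshold with diet alone and 9 with strain as a block. Their mean level was 7.04 ± 0.45 (5.59 to 7.96) on HP and 7.29 ± 0.41 (6.49 to 8.52) on HS, and none of the 10 was near 0. With that mean level added to the fit as a covariate, 1 member (*Stat2*, -0.17, BH-adjusted p = 0.0239) was called lower with diet alone and 3 (*Stat2*, *Ddx58* and *Lgals3bp*) with strain as a block, and the median difference of the block fit was -0.02. In the fit with diet alone and the covariate, 16 of 36 members remained below 0, against 36 of 36 without the covariate. In the block fit 20 of 36 were below 0 with the covariate and 35 without it. Of the tested markers of T and NK cells (5 of 10 listed), B and plasma cells (3 of 6) and endothelial cells (6 of 6), 0 were called by diet in either limma fit, and 1 T and NK cell marker was lower on HP at an unadjusted p under 0.05. The plasmacytoid dendritic cell marker *Tcf4* was also lower on HP with strain as a block (-0.11, limma, BH-adjusted p = 0.0108). *Bst2*, the other tested marker of these cells, and the neutrophil marker *Csf3r* were not called.

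**Figure D4:**
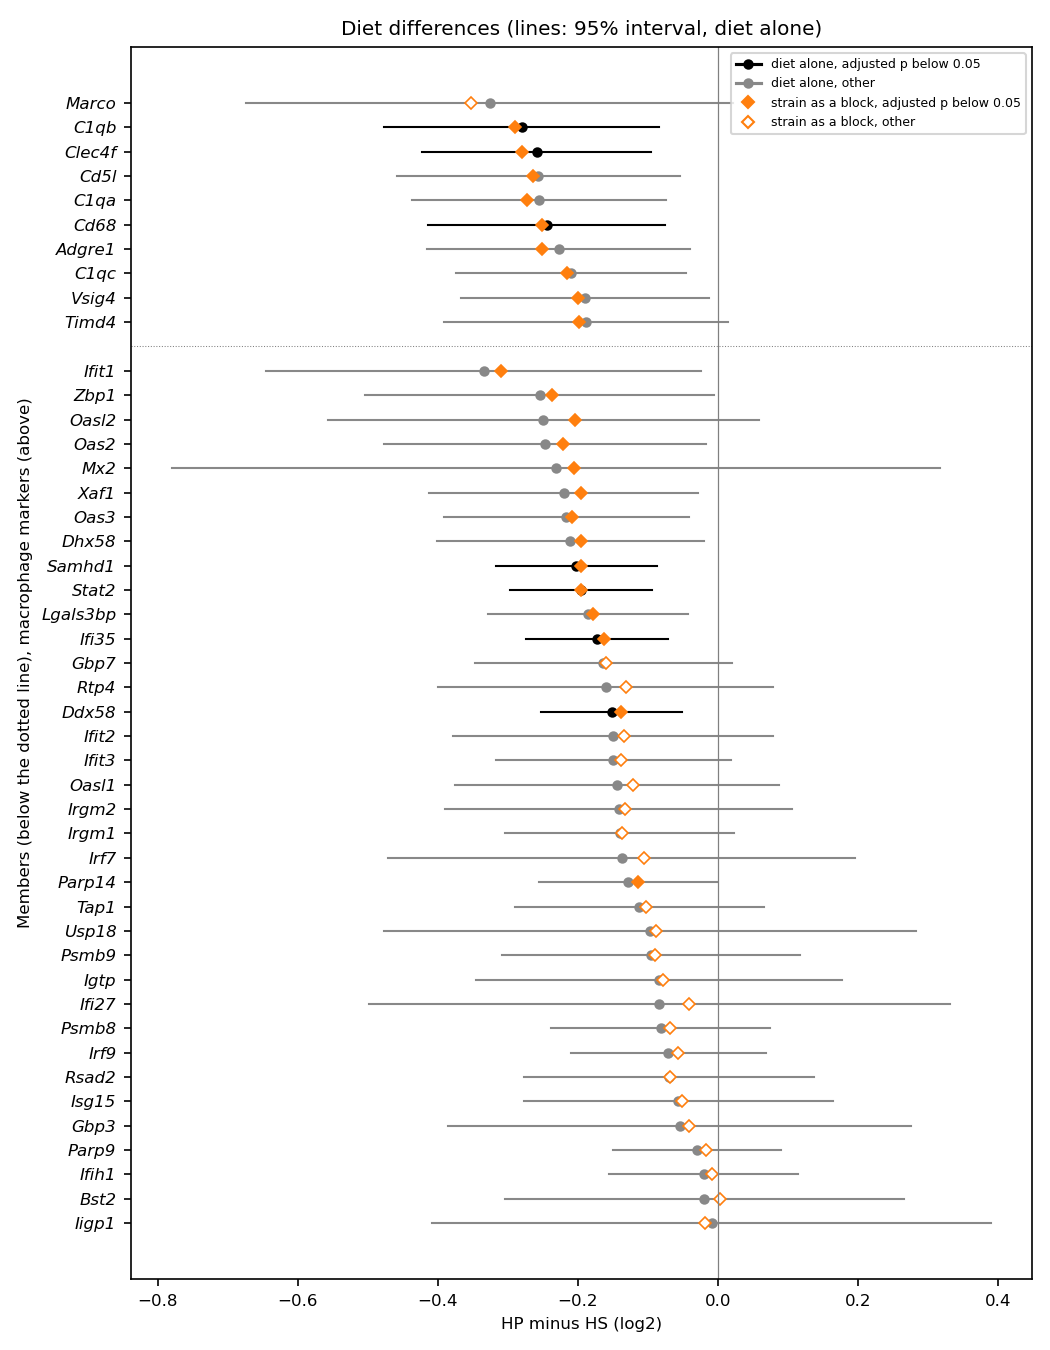
HP minus HS (log2, horizontal axis) for the 36 members (below the dotted line) and 10 macrophage markers (above it). Circles and 95% intervals are from the fit with diet alone (black where the BH-adjusted p is under 0.05), and diamonds are from the fit with strain as a block (filled where called). All circles lie left of 0, with 4 members and 3 markers in black, and 14 members and 9 markers have filled diamonds.

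In the mean over the 36 members, HP was lower in 17 of 22 strains, by a median of -0.06, but the strains ranged widely. CC045/GeniUnc had -0.63, CC071/TauUnc -0.51 and CC037/TauUnc -0.40, while CC059/TauUnc had 0.23, CC040/TauUnc 0.16 and CC036/Unc 0.15. The SD of this mean between mice of a strain was 0.24. In CC071/TauUnc the 6 mice spread from -0.84 to 0.37, the HP mouse of low *Xist* among them. The CC059/TauUnc value includes the HS mouse that was nearest to CC035/Unc. In the test of the strain by diet interaction, 0 of 36 members passed (limma F-test, 3 at an unadjusted p under 0.05), against 0.0183% of all genes. The smallest interaction p were those of *Oas3* (F = 1.95, p = 0.0171, BH-adjusted p = 0.880) and *Irgm2* (F = 1.79, p = 0.0336, BH-adjusted p = 0.988). *Oas3* differed by -0.95 in CC030/GeniUnc and by 0.34 in CC001/Unc, and *Irgm2* by -0.94 in CC019/TauUnc and by 1.01 in CC059/TauUnc. The CC059/TauUnc difference of *Irgm2* also includes the HS mouse nearest to CC035/Unc, which read 6.34 where its strain mates read 7.59 to 9.10. *Oas3* lay above the level cut in only 17.9% of mice, and CC030/GeniUnc and CC001/Unc held its highest strain means (4.25 and 4.23). Each of these diet differences rests on 2 or 3 mice per diet, and differences within single strains were not tested.

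The third question was whether the members varied together from mouse to mouse. Over all 123 mice, 629 of the 630 pairs of members correlated above 0, with a median r of 0.565, where all pairs of tested genes had a median of 0.012. With the mean of each strain and diet removed, so that only differences between mice of the same strain and diet remained, the median was 0.372 and 614 of 630 pairs were above 0, against a median of 0.016 for all pairs of tested genes. The points of each correlation share RNA extraction and array, and no p is given.

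After removal of the strain and diet means, the GTPases and antigen processing genes formed the tightest block. Their 36 pairs had a median r of 0.616 and none was below 0.456 (*Iigp1* and *Tap1*). The 190 pairs of transcription factors, sensors and antiviral effectors had a median of 0.326, and the 180 pairs between the groups 0.354. The highest pairs were *Igtp* and *Irgm2* at 0.864, *Psmb8* and *Psmb9* at 0.813 and *Psmb8* and *Tap1* at 0.757. The genes of each pair lie close together on a chromosome. *Igtp* and *Irgm1*, on the same chromosome but not close together, and *Psmb9* and *Tap1*, whose promoter entries overlap, followed, both at 0.753. *Igtp* and *Irgm2* are related in sequence, and whether their probes cross-hybridise was not examined. Neighbours of other families ranged from 0.193 for *Oasl1* and *Oasl2* and 0.206 for *Ifit1* and *Ifit3* to 0.408 for *Parp9* and *Parp14*, 0.455 for *Ifit1* and *Ifit2* and 0.602 for *Gbp3* and *Gbp7*. The lowest pair was *Lgals3bp* and *Parp9* at -0.31.

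*Stat2*, the member with the smallest adjusted p for diet, varied least with the others within strain and diet, with a median r of 0.159 over the 35 other members, and *Mx2* followed at 0.192. The median r of *Iigp1* with other members was 0.419 within strain and diet and 0.183 between strain means, the lowest of the 36 on that scale, which includes the low mean of CC002/Unc.

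**Figure D5:**
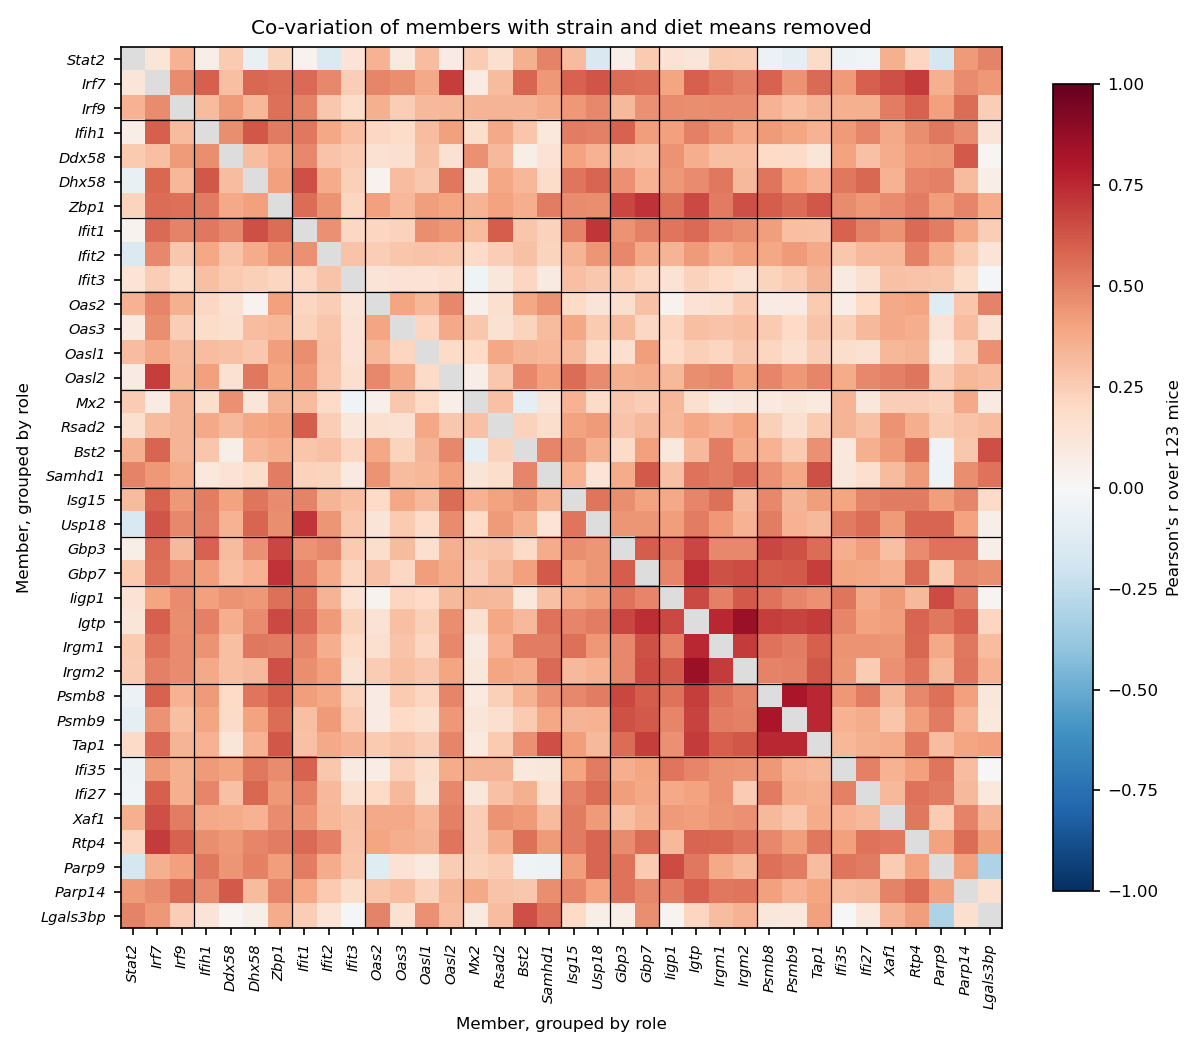
Pearson's r over 123 mice (colour) between each pair of the 36 members after the mean of each strain and diet was removed, with members grouped by role on both axes and the diagonal in grey. The darkest block holds the GTPases and antigen processing genes (*Gbp3* to *Tap1*, median 0.616), and the rows of *Stat2* and *Mx2* are the palest.

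*Irf7* was set against each of the 35 other members in the same residuals, by a two-sided permutation test that shuffled mice within strain and diet (100000 permutations, BH-adjusted over the 35). All correlations were above 0, and 33 of 35 passed. The test was run on the members only, so the share of all tested genes that would pass with *Irf7* is not known. The highest were those with *Rtp4* (r = 0.699, rho = 0.683), *Oasl2* (r = 0.688, rho = 0.618), *Xaf1* (r = 0.648, rho = 0.570) and *Usp18* (r = 0.627, rho = 0.569), each at a permutation p of 1e-05, the smallest the permutations can give (BH-adjusted p = 2.06e-05 for r and 2.5e-05 for rho). The 2 members that did not pass were *Mx2* (r = 0.083, permutation p = 0.687, BH-adjusted p = 0.687) and *Stat2* (r = 0.124, permutation p = 0.209, BH-adjusted p = 0.215). The 2 mice farthest from the median of *Irf7* were HP mouse 88 of CC035/Unc at 4.69 and HP mouse 22 of CC024/GeniUnc at 9.54. Without them r was 0.727 with *Rtp4*, 0.630 with *Oasl2*, 0.671 with *Xaf1* and 0.630 with *Usp18*, and 33 again passed. They were picked by level and not by distance from the mean of their strain and diet. That check kept the CC059/TauUnc HS mouse nearest to CC035/Unc, which read 5.48 in *Irf7* where its strain mates read 6.93 to 7.55. This mouse lay above its strain mates only in *Stat2* and *Mx2*. Without the 2 mice that stood apart, 34 of 35 passed by r and 35 by rho, and the lowest r was 0.153.

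The other genes of the pathway, fixed as a list, are given beside the members. Of 42 other genes of interferon production and signalling, 29 were tested. By strain, 27 of 29 passed, all but *Ifna1* and *Ifnl2*, against 81.3% of all tested genes. By diet, 0 of 29 passed with diet alone (limma, 4 at an unadjusted p under 0.05), and 14 differences were below 0. In that fit 5.13% of all tested genes were called lower on HP and 6.28% higher. With strain as a block 5 of 29 passed, where 11.7% of all tested genes were called lower and 11.5% higher. Of these 5, the adaptors *Mavs* and *Ticam1* were higher on HP by 0.08 and 0.15. The RNA sensors *Tlr3* and *Tlr7* and the RNA editing enzyme *Adar* were lower by -0.15, -0.19 and -0.08. The receptor subunits *Ifnar1* and *Ifnar2* differed by -0.02 ± 0.03 and 0.01 ± 0.03 (SE, BH-adjusted p = 0.760 and 0.821). *Irf1*, a transcription factor induced by interferon gamma, differed by 0.08 ± 0.06 (SE, BH-adjusted p = 0.399). The mean over the 9 interferon genes with a cluster of their own was 2.69 ± 0.15 on HP and 2.68 ± 0.15 on HS, below the lowest array median, and it did not exceed 3.04 in any mouse. Of the 9, 3 passed the filter, with means on HP and HS of 4.36 and 4.36 for *Ifna1*, 3.68 and 3.58 for *Ifna4* and 4.56 and 4.62 for *Ifnl2*.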

How the data were processed

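Liver RNA of 123 mice was hybridised to Affymetrix MoGene 2.1 ST arrays. The deposited values are log2 intensities that the authors made with RMA (background correction, quantile normalization, median polish) after removing outlying arrays. The submitters' notes name RMA and Affymetrix Expression Console, with no version in the sources used here. Arrays give no read depth, so the number of mice limits the precision.

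Of 41345 transcript clusters, 23521 carried 1 symbol. The brightest cluster stood for each gene, and a gene was tested if its median, or over 12.5% of mice, lay above 4.08, the mean of the cluster medians. limma 3.58.1 (R 4.3.3) fitted diet alone, strain alone, and their interaction over 10942 genes, with BH adjustment and a threshold of 0.05. The study's methods name limma for expression by diet or strain and give no further terms. Strain as a block and other filters, scalings, priors and left-out strains or mice were alternatives. The fits and the permutation test were tested on simulated data. Whether mice shared litters or cages was not in the labels, and the week and the array plate could not enter a fit. Correlations and figures used Python 3.11.15 with scipy 1.17.1.

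The members and lists were chosen with earlier results of these data known. By rule, full statistics went to members past the diet threshold, the 12 with the largest strain F, the 2 with the smallest interaction p, and *Irf7*, *Stat2*, *Irf9*, *Isg15* and *Usp18*. Lists also covered neutrophil markers (0 of 1 tested called by diet, 5 listed) and plasmacytoid dendritic cell markers (0 of 2 with diet alone and 1 with strain as a block, 5 listed, *Bst2* among them).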

Additional observations from a re-analysis of the deposited data

Results flagged for a closer look

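A mouse stood far from the others of its strain in 4 of 62 groups examined (the member mean in each strain, and each fully described member in its lowest and highest strain), and chance alone gives about 1 in 20. *Ifi27* in CC027/GeniUnc was 8.68 in 1 HP mouse and 8.99 to 9.10 in the other 5 mice. *Rtp4* in CC024/GeniUnc was 8.41 in HS mouse 61 and 7.37 to 7.50 in the other 3. *Oasl1* in CC040/TauUnc was 5.61 in HS mouse 18 and 6.17 to 6.46 in the other 5. *Isg15* in CC024/GeniUnc was 7.64 in HP mouse 22 and 5.76 to 6.06 in the other 3. Both CC024/GeniUnc mice were also the 2 with the highest mean over the members.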

How the results depend on the processing

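All 36 members passed the test by strain in every setting tried, with diet as a covariate and without any 1 strain included, and with no filter on low values 38 of 39 did, all but *Gbp6*. The interaction gave 0 members in every setting. By diet, 0 members were higher on HP in every setting. The count lower on HP was 3 to 4 without any 1 strain, 14 with strain as a block and 1 with the mean macrophage marker level as a covariate, an alternative chosen after the data were seen. *Ddx58* also lost its call with no filter (BH-adjusted p = 0.0696). With no filter *Trim30a* was lower on HP by -0.36 (BH-adjusted p = 0.0214). For the other pathway genes, the count by diet was 0 to 1 without any 1 strain, 1 after repeated quantile normalization (*Ticam1*), 1 with the macrophage covariate (*Irf1*, 0.16) and 5 with strain as a block. *Irf7* passed by r with 32 to 34 of 35 members where strain and diet means were removed. It passed with all 35 where they were not, a setting that shuffled mice across strains and so treated mice of a strain as independent. Signs turned only for members that did not pass the test with diet alone, although *Mx2* and *Oasl2* passed with strain as a block. With the macrophage covariate HP minus HS was above 0 for 20 members: *Irf7* 0.107, *Irf9* 0.00766, *Ifih1* 0.0259, *Ifit2* 0.0161, *Oasl2* 0.0262, *Mx2* 0.0222, *Rsad2* 0.073, *Bst2* 0.0674, *Isg15* 0.108, *Usp18* 0.105, *Gbp3* 0.188, *Iigp1* 0.296, *Igtp* 0.114, *Irgm1* 0.000757, *Psmb8* 0.054, *Psmb9* 0.065, *Tap1* 0.0189, *Ifi27* 0.124, *Rtp4* 0.0093 and *Parp9* 0.029. *Bst2* was also above 0 with strain as a block (0.00246) and without 1 of 4 strains, in a range of -0.0495 to 0.01999 over all strains left out in turn. *Iigp1* was above 0 without the 2 mice that stood apart (0.0025), without the 2 of highest member mean (0.0108) and without 1 of 4 strains (-0.0479 to 0.0125 over all left out in turn). The cause of these changes was not tested. The mice on the 2 diets share no replicate number in the labels, so single mice were not paired, and the fit with strain as a block compares the diets within strains. Without the 2 mice that stood apart, 4 members were lower on HP with diet alone and 13 with strain as a block, and without the 2 mice of highest member mean also 4 and 13.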
